A study of Mus musculus with 9 samples.

Results

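*Clu*, *Trf*, *Sparc*, *Wfdc1*, *Aard*, *Vim* and *Cst9* are 7 genes expressed by Sertoli cells, most of which encode proteins that these cells secrete or build into their cytoskeleton. They were taken by name from the 32035 genes measured in whole testes, and several of them were chosen by their higher level in *Kpna6* ΔIBB/ΔIBB than in WT testes. Their difference in that comparison is therefore given as a description, without a test. RNAseq covered 3 WT, 3 *Kpna6* ΔIBB/ΔIBB and 3 *Kpna6*-/- male mice, all C57Bl6/N and 15 weeks old. In *Kpna6* ΔIBB/ΔIBB mice, exon 2 of the gene for importin α7 (Kpna6) is removed from every cell, and the protein still made lacks the domain that binds importin β. *Kpna6*-/- mice carry a gene trap in intron 1, but the study describes full-length protein that persists in their germ cells, so these testes are not free of Kpna6. WT mice carry neither allele, and no group received a treatment.

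Sertoli cells line the seminiferous tubule, hold the germ cells in pockets of their cytoplasm and seal the blood-testis barrier. Because meiotic and postmeiotic germ cells lie behind this barrier, Sertoli cells supply them with metal ions, lipids, growth factors and protease inhibitors. Clusterin and transferrin are classical secretory products of these cells, and vimentin filaments anchor the Sertoli nucleus and reach towards the junctions with germ cells. Whole testis also holds Leydig, peritubular myoid, endothelial and immune cells, several of which make *Clu*, *Sparc* and *Vim* as well. In bulk RNA, a change in the number of Sertoli cells, in the RNA of each cell, or in the amount of germ cell RNA that dilutes them cannot be told apart.

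The 9 libraries held between 24973189 and 31629697 estimated counts. *Kpna6* itself had 81.2, 85.3 and 81.8 CPM (counts scaled by edgeR to a common library size, not corrected for gene length) in *Kpna6* ΔIBB/ΔIBB, 201, 325 and 334 in WT, and 247, 249 and 262 in *Kpna6*-/- testes. The ΔIBB/ΔIBB libraries were thus below all others, whereas the gene total did not separate *Kpna6*-/- from WT (log2 fold change -0.18, adjusted P = 0.586). A long *Kpna6* transcript of 5710 bases was between 11.3 and 11.98 TPM (the share of a library's transcripts, corrected for length) in *Kpna6*-/- and between 16.9 and 23.4 TPM in WT testes. A library of replicate 3 of *Kpna6* ΔIBB/ΔIBB stood apart in a list of 10 genes typical of the epididymis, whose TPM values added up to 185 there and to between 20.0 and 35.5 in the other libraries, while *Lcn5* of that list was at 0 in all 9.

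The 7 members spanned a wide range of levels. On the TPM scale the order in WT testes was *Clu* (594 ± 30.9 TPM, SD, n = 3), *Cst9* (262 ± 26.2), *Sparc* (194 ± 4.99), *Aard* (141 ± 3.99), *Vim* (37.6 ± 2.30), *Trf* (15.0 ± 5.88) and *Wfdc1* (10.7 ± 0.719). The ranges of neighbours in this order did not overlap, with the exception of *Trf* and *Wfdc1*. The order of the first 5 genes was the same in both mutant lines. *Trf* and *Wfdc1* also overlapped in *Kpna6*-/- testes, with 18.7 ± 2.57 and 18.6 ± 1.21 TPM (SD, n = 3). In *Kpna6* ΔIBB/ΔIBB testes, *Wfdc1* stood above *Trf*, with 30.7 ± 0.872 against 27.8 ± 1.01 TPM (SD, n = 3), and their ranges were separate. The 7 genes together held between 1192 and 1332 TPM in WT, between 1516 and 1621 TPM in *Kpna6*-/- and between 2076 and 2437 TPM in *Kpna6* ΔIBB/ΔIBB testes. TPM values were not normalized between samples. On the log2(TPM + 1) scale, the median difference of all genes tested was itself 0.11 between ΔIBB/ΔIBB and WT testes.

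*Clu* encodes clusterin, an extracellular chaperone and lipid carrier that coats sperm and debris in the tubule. Its gene lies on chromosome 14 of GRCm38 from 65968483 to 65981547 on the forward strand. The 3 WT testes had 774, 703 and 713 CPM, the *Kpna6*-/- testes 859, 903 and 837 CPM, and the *Kpna6* ΔIBB/ΔIBB testes 1218, 1089 and 984 CPM. Every *Kpna6*-/- value lay between the highest WT and the lowest ΔIBB/ΔIBB value.

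*Trf* encodes transferrin, which carries iron across the Sertoli cell to the germ cells. The gene spans chromosome 9 from 103204001 to 103230444 on the reverse strand. WT testes had 19.7, 10.4 and 11.8 CPM, *Kpna6*-/- testes 18.1, 19.5 and 21.1 CPM, and *Kpna6* ΔIBB/ΔIBB testes 26.0, 25.7 and 27.5 CPM. WT replicate 1 was far above the other WT testes and within the *Kpna6*-/- range. A predicted gene on the same strand, *Gm20425* (chromosome 9, 103190208 to 103230307), shares 1517 identical bases with *Trf* transcripts, and kallisto divides the reads of shared sequence between both.

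*Sparc* encodes a collagen-binding glycoprotein of the extracellular matrix that changes the shape and adhesion of cells. The locus is on chromosome 11 from 55394500 to 55423183 on the reverse strand. WT testes had 326, 319 and 302 CPM, *Kpna6*-/- testes 362, 340.3 and 362 CPM, and *Kpna6* ΔIBB/ΔIBB testes 623, 564 and 543 CPM. WT and *Kpna6*-/- values were close to each other, with a wide gap to the ΔIBB/ΔIBB values.

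*Vim* encodes vimentin, the main intermediate filament protein of the adult Sertoli cell and of most mesenchymal cells. It lies on chromosome 2 from 13573927 to 13582826 on the forward strand. WT testes had 56.3, 48.3 and 44.4 CPM, *Kpna6*-/- testes 62.5, 64.5 and 62.5 CPM, and *Kpna6* ΔIBB/ΔIBB testes 106, 98.2 and 94.3 CPM. Its pattern resembled that of *Sparc*, with a small step between WT and *Kpna6*-/- and a large step to ΔIBB/ΔIBB.

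*Wfdc1* encodes a small secreted protein with a WAP four-disulfide core, a fold shared with protease inhibitors. It lies on chromosome 8 from 119666365 to 119688222 on the forward strand. WT testes had 9.11, 8.13 and 7.93 CPM, *Kpna6*-/- testes 15.8, 13.9 and 14.5 CPM, and *Kpna6* ΔIBB/ΔIBB testes 21.6, 22.6 and 21.8 CPM. The 3 groups were widely separated, and *Kpna6*-/- testes lay near the middle. The annotation places an antisense gene, *Gm32352*, over *Wfdc1*, and the library kit did not keep the strand. No match of at least 100 bases at 95% identity joined *Wfdc1* to a transcript of another gene. Reads from any shorter overlap of both transcripts cannot be told apart.

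*Aard* encodes a protein rich in alanine and arginine that is expressed in Sertoli cells. It lies on chromosome 15 from 52040107 to 52045722 on the forward strand. WT testes had 129, 124 and 127 CPM, *Kpna6*-/- testes 158, 157 and 159 CPM, and *Kpna6* ΔIBB/ΔIBB testes 227, 214 and 206 CPM. The groups did not overlap, and replicates were close to each other in WT and *Kpna6*-/- testes.

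*Cst9* encodes testatin, a secreted relative of the cystatins, which inhibit cysteine proteases. It lies on chromosome 2 from 148835147 to 148838738 on the forward strand. WT testes had 100.4, 83.7 and 85.9 CPM, *Kpna6*-/- testes 138, 144 and 129 CPM, and *Kpna6* ΔIBB/ΔIBB testes 162, 161 and 147 CPM. Unlike *Sparc* and *Vim*, the *Kpna6*-/- values of *Cst9* lay close to the ΔIBB/ΔIBB values and far from WT.

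**Figure D1:**
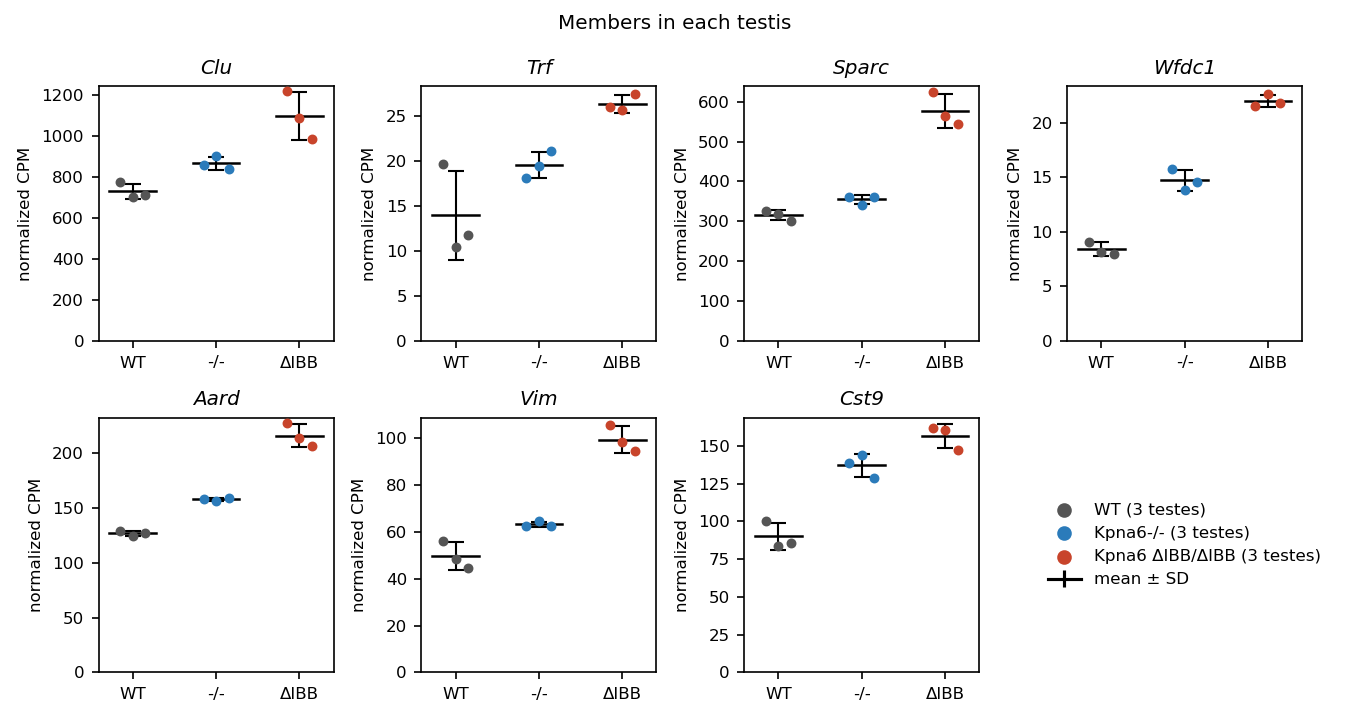
Normalized CPM (vertical axis, starting at 0) of each member in WT, Kpna6-/- and Kpna6 ΔIBB/ΔIBB testes, with 1 point per testis and the mean ± SD of 3. All ΔIBB/ΔIBB points lie above all WT points, and Kpna6-/- points lie between them except for Trf, where they overlap with WT. They are near WT for Sparc (340.3 to 362 CPM) and near ΔIBB/ΔIBB for Cst9 (129 to 144 CPM).

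In *Kpna6* ΔIBB/ΔIBB compared with WT testes, the comparison that guided the choice, *Wfdc1* had the largest fitted log2 fold change of the 7, 1.39 ± 0.08 (SE), which is 2.63-fold. *Vim* followed with 1.00 ± 0.08 (SE), *Trf* with 0.92 ± 0.18 (SE), *Sparc* with 0.87 ± 0.05 (SE), *Cst9* with 0.80 ± 0.07 (SE), *Aard* with 0.77 ± 0.05 (SE) and *Clu* with 0.59 ± 0.07 (SE), which is 1.51-fold. The 3 ΔIBB/ΔIBB testes were above the 3 WT testes for 7 of 7 members. Among all 18797 genes tested, 25.3% had this separation, 17.7% were called higher and 18.9% lower at an adjusted P-value below 0.05, and because the choice used this contrast, nothing is read from the members' count. TMM split the calls into 48.4% higher and the remainder lower, and scaling by library size only gave 70.0% higher and moved the median of all genes by 0.11 on the log2 scale. The larger spread of *Trf* came with WT replicate 1, without which its log2 fold change was 1.25. Summing *Gm20425* with *Trf* gave 0.60. The median log2 fold change of all genes tested was 0.01, against a median of 0.87 for the members. Without the ΔIBB/ΔIBB library that was high in epididymal genes, the members' values were between 0.67 (*Clu*) and 1.40 (*Wfdc1*).

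*Kpna6*-/- testes were compared with the same WT libraries, so this comparison is not independent of the one that guided the choice. Several members were picked for values in these WT libraries below those of ΔIBB/ΔIBB, so the P-values are no independent test. Nothing is read from the members' count. Of the 7 members, 5 rose at an adjusted P-value below 0.05, where 0.889% of the 18681 genes tested were called higher and 0.712% lower. These were *Wfdc1* (log2 fold change 0.81 ± 0.09 SE, adjusted P = 0.000716), *Cst9* (0.61 ± 0.07 SE, adjusted P = 0.000604), *Aard* (0.32 ± 0.04 SE, adjusted P = 0.00151), *Clu* (0.25 ± 0.04 SE, adjusted P = 0.0155) and *Vim* (0.34 ± 0.07 SE, adjusted P = 0.0373), by edgeR's quasi-likelihood test with Benjamini-Hochberg adjustment. *Sparc* (0.17 ± 0.04 SE, adjusted P = 0.0727) and *Trf* (0.48 ± 0.18 SE, adjusted P = 0.223) did not pass. For 6 of 7 members, all but *Trf*, the *Kpna6*-/- testes were above the WT testes, a separation found in 10.0% of all genes tested.

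*Wfdc1*, *Cst9* and *Aard* kept their calls whichever library was left out, whereas *Clu* and *Vim* did not. With limma on log2(TPM + 1), *Cst9* lost its call (adjusted P = 0.0603). With limma on log2(TPM + 0.1), both *Cst9* (adjusted P = 0.0684) and *Aard* (0.0567) lost theirs. *Clu* (adjusted P = 0.179 and 0.18) and *Vim* (0.384 and 0.386) lost their calls under both limma fits. With length-scaled TPM counts, *Clu* (adjusted P = 0.0783) and *Vim* (0.306) were not called by edgeR either. *Clu* was also not called when all 9 samples were fitted together (adjusted P = 0.0714). *Clu* lost its call without WT replicate 2 (adjusted P = 0.0556), WT replicate 3 (0.0647), *Kpna6*-/- replicate 1 (0.0719) or *Kpna6*-/- replicate 2 (0.0849). *Vim* lost it without WT replicate 2 (adjusted P = 0.114), WT replicate 3 (0.106), or *Kpna6*-/- replicate 1 (0.143), 2 (0.145) or 3 (0.0932). Without WT replicate 1, by contrast, 7 of 7 members were called, including *Trf* (log2 fold change 0.81, adjusted P = 0.000518) and *Sparc* (0.19, adjusted P = 0.0388).

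*Kpna6* ΔIBB/ΔIBB and *Kpna6*-/- testes were then compared directly, which shares the ΔIBB/ΔIBB libraries with the comparison that guided the choice. Several members were picked for high values in these libraries, so the P-values are no independent test, and nothing is read from the members' count. All 7 members were higher in *Kpna6* ΔIBB/ΔIBB testes at an adjusted P-value below 0.05, where 13.5% of 18752 genes tested were called higher and 16.8% lower. Higher calls were 44.5% of all calls, and 71.0% with scaling by library size only, under which all 7 members were called as well. The 3 ΔIBB/ΔIBB testes were above the 3 *Kpna6*-/- testes for each of the 7, a separation found in 21.4% of all genes tested. *Sparc* (log2 fold change 0.70 ± 0.05 SE, adjusted P = 2.09e-06) and *Vim* (0.65 ± 0.05 SE, adjusted P = 3.02e-06) differed most between the mutant lines. *Wfdc1* followed with 0.58 ± 0.07 SE (adjusted P = 9.46e-05), *Aard* with 0.45 ± 0.04 SE (adjusted P = 9.27e-06), *Trf* with 0.43 ± 0.07 SE (adjusted P = 0.000628) and *Clu* with 0.34 ± 0.06 SE (adjusted P = 0.00142).

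*Cst9* differed least between the mutant lines, with 0.19 ± 0.05 SE (adjusted P = 0.014). Its call was lost without ΔIBB/ΔIBB replicate 1 (adjusted P = 0.0516), ΔIBB/ΔIBB replicate 2 (0.058) or *Kpna6*-/- replicate 3 (0.0649). *Trf* lost its call when all 9 samples were fitted together (adjusted P = 0.0625). It had a log2 fold change of 0.17 (adjusted P = 0.0293) when *Gm20425* was added to it. On its own, *Gm20425* had -0.12 between the mutant lines (adjusted P = 0.201) and 0.37 between *Kpna6*-/- and WT (adjusted P = 0.0244).

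**Figure D2:**
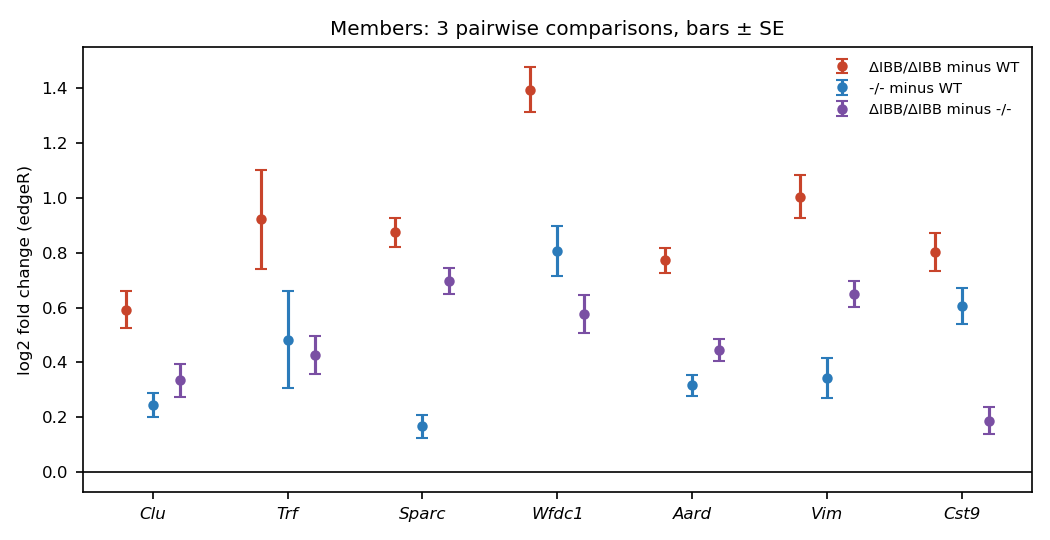
Log2 fold change (vertical axis, edgeR fit) of each member in the 3 pairwise comparisons, with 1 point per comparison and bars of ± 1 SE. Wfdc1 reaches 1.39 in ΔIBB/ΔIBB minus WT, Sparc has 0.17 in -/- minus WT against 0.70 between the mutant lines, and Cst9 has 0.61 and 0.19.

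Other genes of the Sertoli cell were set beside the members. Of 15 markers outside the member list, among them *Sox9*, *Wt1*, *Amh*, *Fshr* and *Cldn11*, 15 rose in *Kpna6* ΔIBB/ΔIBB compared with WT testes, and their median was 0.64 on the log2 scale. In *Kpna6*-/- compared with WT testes, edgeR called 2 of the 15 higher, where 0.889% of all genes tested were called higher. These were *Inha* (inhibin α, 0.62, adjusted P = 0.00643) and *Shbg* (androgen-binding protein, 0.66, adjusted P = 0.0364), and the median of the 15 was 0.23. All 15 had a positive log2 fold change there, 10 were below 0.05 unadjusted by edgeR, and DESeq2 called 3. The call of *Inha* was lost without *Kpna6*-/- replicate 1, and that of *Shbg* without any 1 library other than WT replicate 1. The most abundant marker, the β-defensin gene *Defb36*, had 134 ± 30.0 TPM in WT, 179.7 ± 9.19 TPM in *Kpna6*-/- and 267 ± 46.2 TPM in *Kpna6* ΔIBB/ΔIBB testes (SD, n = 3). *Amh* (1.78, adjusted P = 2.82e-05), *Shbg* (1.64, adjusted P = 3.13e-05), *Fshr* (1.35, adjusted P = 0.000149) and *Inha* (1.21, adjusted P = 1.39e-05) rose at least 2-fold in ΔIBB/ΔIBB compared with WT testes. The 15 markers added up to 450.2 to 538 TPM in WT, 588 to 622 TPM in *Kpna6*-/- and 852 to 1001 TPM in *Kpna6* ΔIBB/ΔIBB testes. The study measured *Wt1*, *Gata1*, *Rhox5*, *Cldn11* and the member *Clu* by quantitative PCR in adult testes of these lines. They were part of a larger set that also held *Cldn3*. *Cldn3* was the only gene of that set named as changed, with a fall restricted to the ΔIBB/ΔIBB line. No significant difference was reported for most of the set. The study also counted fewer Sertoli cells in adult testes of both mutant lines. The reason why these reports differ from the RNAseq values was not tested.

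Markers of other cells were read in the same way. Between *Kpna6* ΔIBB/ΔIBB and WT testes, 17.7% of all genes tested were called higher and 18.9% lower. These are the shares to set beside each list count of this comparison, here and below. All 9 genes of elongating spermatids fell in *Kpna6* ΔIBB/ΔIBB compared with WT testes (median log2 fold change -0.36), and their sum was 59330 to 67440 TPM there, 70636 to 80844 TPM in WT and 79029 to 80728 TPM in *Kpna6*-/- testes. With scaling by library size only, *Odf2* (adjusted P = 0.147) and *Tnp2* (0.0591) lost their calls, and with limma on log2(TPM + 1) *Prm1* (0.13) lost its call as well as *Odf2* (0.116) and *Tnp2* (0.182). Of 8 macrophage markers 4 rose, of 6 peritubular myoid markers 4 rose and 1 fell, and of 8 Leydig markers 2 rose. Of 8 pachytene spermatocyte markers 3 fell, of 8 spermatogonial markers 2 rose and 1 fell, and of 6 endothelial markers 1 fell. The Leydig, spermatogonial and endothelial counts were near the shares of all genes and are not read as a change of these cells. Of the pachytene calls, that of *Ldhc* was lost with scaling by library size only (adjusted P = 0.264) and with limma on log2(TPM + 1) (0.915). *Spag6* lost its call with the same limma fit (adjusted P = 0.0604). The macrophage calls of *C1qa*, *C1qc* and *Cd68* were each lost without WT replicate 2 or 3 or ΔIBB/ΔIBB replicate 1. The pachytene and macrophage counts are therefore not read as a change of these cells either. The summed Leydig level overlapped between WT (1985 to 3019 TPM) and ΔIBB/ΔIBB (1979 to 2840 TPM) testes. Between *Kpna6*-/- and WT testes, edgeR and DESeq2 called 0 of the 31 spermatid, macrophage, myoid and Leydig markers, with 1 below 0.05 unadjusted. They also called 0 of the 8 pachytene and 0 of the 6 endothelial markers, with 1 and 0 below 0.05 unadjusted. Of the 8 spermatogonial markers both tools called 1 lower, the GDNF receptor gene *Gfra1* (-0.47, adjusted P = 0.0476), and that call was lost with scaling by library size only (adjusted P = 0.0538), with the replicate block (0.0566) and without any 1 library other than WT replicate 1. The part of these cells in the members' values was not tested.

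To set the members against the other Sertoli genes, the log2 ratio of each member to the summed CPM of the 15 markers was taken in every testis. The markers' sum differed by 0.77 on the log2 scale between ΔIBB/ΔIBB and WT and by 0.29 between *Kpna6*-/- and WT. *Wfdc1* exceeded this change in both lines. Its ratio was 0.62 higher in ΔIBB/ΔIBB and 0.52 higher in *Kpna6*-/- than in WT testes, and neither mutant range overlapped with WT. *Vim* was 0.23 higher in ΔIBB/ΔIBB than in WT relative to the markers, *Sparc* 0.10 higher and *Clu* lower, at -0.19. The ratio of *Trf* was 0.20 higher in ΔIBB/ΔIBB and 0.25 higher in *Kpna6*-/- than in WT testes, with an SD of 0.39 among WT testes. *Aard* and *Cst9* had differences of -0.01 and 0.03 in ΔIBB/ΔIBB testes. In *Kpna6*-/- testes, *Cst9* was 0.32 above the markers' change, *Sparc* stood at -0.12 and *Clu* at -0.04. Replaced by the median of the log2 values of the 15 markers, the reference gave ΔIBB/ΔIBB minus WT values of 0.83 for *Wfdc1*, 0.44 for *Vim*, 0.31 for *Sparc*, 0.24 for *Cst9*, 0.21 for *Aard* and 0.02 for *Clu*, so that the signs of *Clu* and *Aard* depend on the reference. These ratios are descriptions, without a test.

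**Figure D3:**
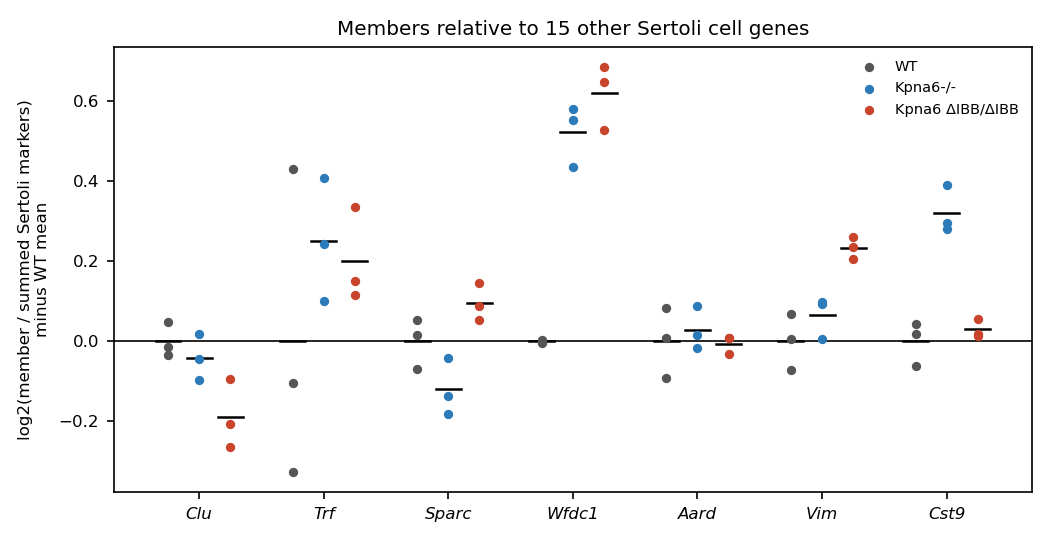
Log2 ratio of each member to the summed CPM of 15 other Sertoli cell genes, minus the WT mean of that ratio (vertical axis), with 1 point per testis and a bar for the mean of 3. Wfdc1 lies above WT in both mutant lines (means 0.52 and 0.62), and Cst9 has a mean of 0.32 in Kpna6-/- and 0.03 in ΔIBB/ΔIBB testes, the latter 0.24 with the median of the markers as reference.

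Over the 9 testes, the log2 CPM values of the 21 pairs of members had Pearson correlations from 0.79 (*Sparc* and *Cst9*) to 0.98 (*Aard* and *Vim*), with a median of 0.91. These values share the step between groups. When the group means were removed, all 21 remained above 0, with a median of 0.56. The highest was 0.87 (*Clu* and *Aard*) and the lowest 0.13 (*Clu* and *Wfdc1*). The testes share library preparation and scaling, and no test was made. Among 11679 other genes with a mean of at least 5 TPM, the closest in pattern to *Clu* were *Ppp2r1a*, a subunit of protein phosphatase 2A, and *Psap*, the precursor of the saposins and another Sertoli secretory product, both with r = 0.9925 over 9 samples. *Ncl* (r = 0.9968) and *S100a10* (r = 0.9928) were closest to *Sparc*, *Apobec3* (r = 0.9953) and *Nxnl2* (r = 0.9946) to *Vim*, and *Rbm3* (r = 0.9945) and *Ctnna1* (r = 0.9944) to *Aard*. The closest to *Wfdc1* were *Ndufa1* (r = 0.9897) and *Gamt* (r = 0.9892), to *Cst9* *Yars* (r = 0.9916) and *Creg1* (r = 0.99), and to *Trf* *Hsd17b10* (r = 0.9839) and *Hddc2* (r = 0.9792).

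*Cst9* belongs to a cluster of 8 cystatin family genes within 1 Mb on chromosome 2 (GRCm38, 148750358 to 149410293), which allows the member to be set against its neighbours. Of the 10 other cystatin genes on the list, 7 were tested, 2 rose and 2 fell in *Kpna6* ΔIBB/ΔIBB compared with WT testes, with a median log2 fold change of 0.11. *Cst12*, whose start lies 45.8 kb before that of *Cst9* on the same strand, had 277 ± 34.1 TPM in WT, 369 ± 13.1 TPM in *Kpna6*-/- and 587 ± 53.4 TPM in *Kpna6* ΔIBB/ΔIBB testes (SD, n = 3). It rose in ΔIBB/ΔIBB (log2 fold change 0.96, adjusted P = 2.72e-05) and in *Kpna6*-/- (0.42, adjusted P = 0.0155) compared with WT, and it was higher in ΔIBB/ΔIBB than in *Kpna6*-/- testes (0.52, adjusted P = 5.29e-05). Its *Kpna6*-/- call was lost without WT replicate 2 or 3 or *Kpna6*-/- replicate 1 or 2. *Cst3*, the widely expressed cystatin C, rose in ΔIBB/ΔIBB (0.32, adjusted P = 0.0123), but not without WT replicate 3. *Cstl1* (-0.53, adjusted P = 0.000221) and *Cst13* (-0.50, adjusted P = 0.000338) fell in ΔIBB/ΔIBB compared with WT, and the start of *Cst13* lies between those of *Cst12* and *Cst9*. *Cst8*, the most abundant of the group with 499.98 ± 14.7 TPM in WT and 510.4 ± 27.2 TPM in ΔIBB/ΔIBB testes (SD, n = 3), had a log2 fold change of -0.09 (adjusted P = 0.136).

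**Figure D4:**
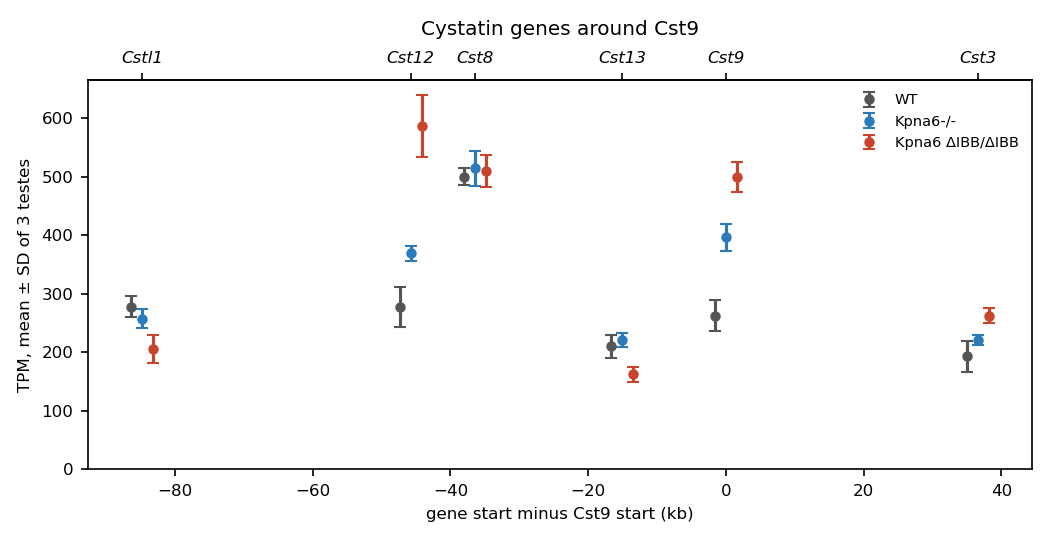
TPM (vertical axis, mean ± SD of 3 testes, starting at 0) of the 6 abundant cystatin genes around Cst9, placed by the distance of each gene start from the Cst9 start in kb (horizontal axis, groups shifted slightly for visibility). Cst12 and Cst9 are highest in ΔIBB/ΔIBB testes (587 and 499 TPM), whereas Cstl1 and Cst13 are lowest there and Cst8 stays near 500 TPM in every group.

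Because *Cst9* and *Cst12* are paralogs and both were higher in the mutant lines, their sequences were compared to see whether reads could be exchanged between them. The coding parts of Cst9-201 (414 bases) and Cst12-201 (387 bases) were 59.2% identical over 375 aligned bases, and the longest run shared by the transcripts was 9 bases. Shown are the aligned stretches of 90 bases from position 241 of the Cst9-201 and 211 of the Cst12-201 coding sequence (GENCODE M21), 5′ to 3′, with the 40 mismatches in capitals.
Cst9-201: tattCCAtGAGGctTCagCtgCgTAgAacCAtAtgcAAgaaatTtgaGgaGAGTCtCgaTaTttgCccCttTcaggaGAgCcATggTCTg
Cst12-201: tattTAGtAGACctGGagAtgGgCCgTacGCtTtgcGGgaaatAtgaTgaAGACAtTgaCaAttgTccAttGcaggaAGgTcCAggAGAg
No match of at least 100 bases at 95% identity joined *Cst9* to any other transcript, and the 2 genes therefore shared no such stretch.

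Start site sequences of 3 members, *Sparc*, *Vim* and *Cst9*, were found in the RefSeq promoter table (GRCm38.p6), and the 250 bases before the start are shown for those whose start is also that of the measured transcript. *Sparc* and *Cst9* are the members with the most different patterns over the 9 testes. The 250 bases before Sparc-201, on the reverse strand at chr11:55420081-55420330 within the annotated gene, and before Cst9-201, on the forward strand at chr2:148834897-148835146, are given 5′ to 3′ in the direction of the gene.
Sparc: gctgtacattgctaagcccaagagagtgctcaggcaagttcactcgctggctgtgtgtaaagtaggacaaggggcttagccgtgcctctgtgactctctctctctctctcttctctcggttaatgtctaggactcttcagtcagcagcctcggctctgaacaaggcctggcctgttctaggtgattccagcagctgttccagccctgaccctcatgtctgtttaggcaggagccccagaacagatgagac
Cst9: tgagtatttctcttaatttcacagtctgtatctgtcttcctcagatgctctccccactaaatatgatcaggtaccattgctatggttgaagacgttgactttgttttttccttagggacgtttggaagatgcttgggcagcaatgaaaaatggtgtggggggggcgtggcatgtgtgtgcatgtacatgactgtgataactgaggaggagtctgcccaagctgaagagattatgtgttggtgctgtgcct
Exact strings for these motifs were searched on both strands, and neither window held any of the strings, so nothing is in capitals. Other forms of the SOX and GATA cores were not searched, so the absence of such sites is not shown. The TATA motif was TATAAA, found in 12.4% of all 32851 windows of this length in the table. The second motif was CCAAT, found in 33.8%. The GC-rich motif was GGGCGG, found in 32.7%. The form searched of the core bound by SOX factors was AACAAT, found in 9.4%. The form searched of the core bound by GATA factors was AGATAA, found in 10.0%. Before the RefSeq start of *Vim*, TATAAA began 32 bases upstream and CCAAT was found on both strands, at 196 and 94 bases. No measured *Vim* transcript begins at that start, and all 250 bases lie within the span of an annotated *Vim* transcript.

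*Wfdc1* was set against its family. Of 19 other genes of WAP four-disulfide proteins, 14 were tested, 5 rose and 2 fell in *Kpna6* ΔIBB/ΔIBB compared with WT testes, with a median log2 fold change of 0.14. *Eppin*, a protease inhibitor on the surface of sperm, had 51.7 ± 4.50 TPM in WT, 73.2 ± 0.818 TPM in *Kpna6*-/- and 107 ± 8.26 TPM in ΔIBB/ΔIBB testes (SD, n = 3), and rose in ΔIBB/ΔIBB (log2 fold change 0.92, adjusted P = 1.61e-05) and in *Kpna6*-/- (0.51, adjusted P = 0.00209). *Wfdc10* rose in ΔIBB/ΔIBB (1.04, adjusted P = 1.71e-05) and in *Kpna6*-/- testes (0.38, adjusted P = 0.0306), as did *Wfdc6a* (0.69, adjusted P = 0.00216, and 0.42, adjusted P = 0.0466). The *Kpna6*-/- calls of *Wfdc10* and *Wfdc6a* were lost with the replicate block and without any 1 library other than WT replicate 1. The abundant *Wfdc15a* (-0.23, adjusted P = 0.00743) and *Wfdc3* (-0.23, adjusted P = 0.0156) fell in ΔIBB/ΔIBB, but neither call held with scaling by library size only, and that of *Wfdc3* not without WT replicate 2 or 3 or ΔIBB/ΔIBB replicate 2. *Wfdc13* was also called higher there (3.39, adjusted P = 0.0369), but its ΔIBB/ΔIBB values ranged from 0.606 to 16.2 TPM, the highest in the library with the epididymal genes, and the call was lost without that library or any 1 WT library. Comparing *Kpna6*-/- with WT testes, 3 of 12 family genes tested rose and 0 fell by edgeR. *Slpi* was lower in ΔIBB/ΔIBB than in *Kpna6*-/- testes (-1.75, adjusted P = 0.000566), at a level of 0.755 to 1.35 TPM.

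The transferrin group joins *Trf* to genes of iron uptake, storage and export. Of 13 genes tested, 7 rose and 1 fell in *Kpna6* ΔIBB/ΔIBB compared with WT testes (median log2 fold change 0.24), while in *Kpna6*-/- compared with WT edgeR and DESeq2 called 0, with 3 below 0.05 unadjusted. The ferritin subunits *Fth1* (0.24, adjusted P = 0.00351) and *Ftl1* (0.48, adjusted P = 0.00565), which store iron, and *Ncoa4* (0.14, adjusted P = 0.0325), the receptor that delivers ferritin to lysosomes, rose, the last not without WT replicate 3 or ΔIBB/ΔIBB replicate 1 or 2. *Ireb2*, which represses ferritin translation when iron is low, fell (-0.42, adjusted P = 4.6e-05). The transferrin receptor gene *Tfrc* had 7.43 ± 0.814 TPM in WT and 8.41 ± 1.48 TPM in ΔIBB/ΔIBB testes (SD, n = 3; log2 fold change -0.10, adjusted P = 0.328).

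Around *Clu*, 2 of 5 receptors for clusterin-bound cargo rose in *Kpna6* ΔIBB/ΔIBB compared with WT testes, *Lrp1* (log2 fold change 0.67, adjusted P = 1.51e-05) and *Lrp8* (0.16, adjusted P = 0.0217), of which the latter lost its call without WT replicate 2 or 3 or ΔIBB/ΔIBB replicate 2 or 3. Both edgeR and DESeq2 called 0 of the 5 in *Kpna6*-/- testes, where 2 passed 0.05 unadjusted. *Trem2* had 0.04 (adjusted P = 0.874) and *Lrp2* -0.24 (adjusted P = 0.58). Of the 7 relatives of *Sparc*, 3 rose and 1 fell in ΔIBB/ΔIBB, and in *Kpna6*-/- testes edgeR and DESeq2 called 0, with 1 below 0.05 unadjusted. *Fstl1* (0.28, adjusted P = 0.0072), *Spock2* (0.30, adjusted P = 0.000985) and *Sparcl1* (0.46, adjusted P = 0.00431) rose by less than *Sparc*, *Smoc1* fell (-0.20, adjusted P = 0.0488, a call not made by DESeq2, with library-size scaling, or without any 1 library other than WT replicate 2), and *Smoc2* had 0.07 (adjusted P = 0.533). The differences between *Sparc* and its relatives were not tested.

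Beside *Vim*, 12 other intermediate filament genes or linkers were tested, of which 1 rose in *Kpna6* ΔIBB/ΔIBB compared with WT testes, the muscle filament gene *Des* (log2 fold change 0.43, adjusted P = 0.016), whose call was lost without WT replicate 2 or ΔIBB/ΔIBB replicate 2. Of 13 tested in *Kpna6*-/- compared with WT, edgeR and DESeq2 called 0, and 0 had an unadjusted P-value below 0.05. *Plec*, which links filaments to junctions, had 78.2 ± 4.28 TPM in WT and 84.4 ± 1.04 TPM in ΔIBB/ΔIBB testes (SD, n = 3; 0.02, adjusted P = 0.766). *Krt8* had 0.04 (adjusted P = 0.808), *Gfap* 0.28 (adjusted P = 0.143) and *Synm* -0.13 (adjusted P = 0.189).

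Other known secretory products of Sertoli cells were set beside the members. Of 12 tested, 9 rose and 1 fell in *Kpna6* ΔIBB/ΔIBB compared with WT testes, with a median log2 fold change of 0.54. *Psap* (0.59, adjusted P = 5.4e-05), the lysosomal protease *Ctsl* (0.59, adjusted P = 0.000276) and the protease inhibitor *Timp2* (0.52, adjusted P = 0.000441) were among the most abundant that rose. *Timp1*, another metalloprotease inhibitor, changed most, with 1.05 to 2.44 TPM in WT, 1.15 to 2.29 TPM in *Kpna6*-/- and 5.51 to 14.8 TPM in ΔIBB/ΔIBB testes (2.58, adjusted P = 0.000513). *Ptgds*, a prostaglandin synthase and the most abundant gene of this list, had -0.20 (adjusted P = 0.492), and *A2m* fell (-0.63, adjusted P = 0.0126), though not without ΔIBB/ΔIBB replicate 1 or 2. Of the 12, 1 was called in *Kpna6*-/- testes, *Psap* (0.22, adjusted P = 0.0173), and not without WT replicate 2 or 3 or *Kpna6*-/- replicate 1 or 2. In that comparison 9 of the 12 had a positive log2 fold change, 6 were below 0.05 unadjusted by edgeR, and DESeq2 called 2.

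**Figure D5:**
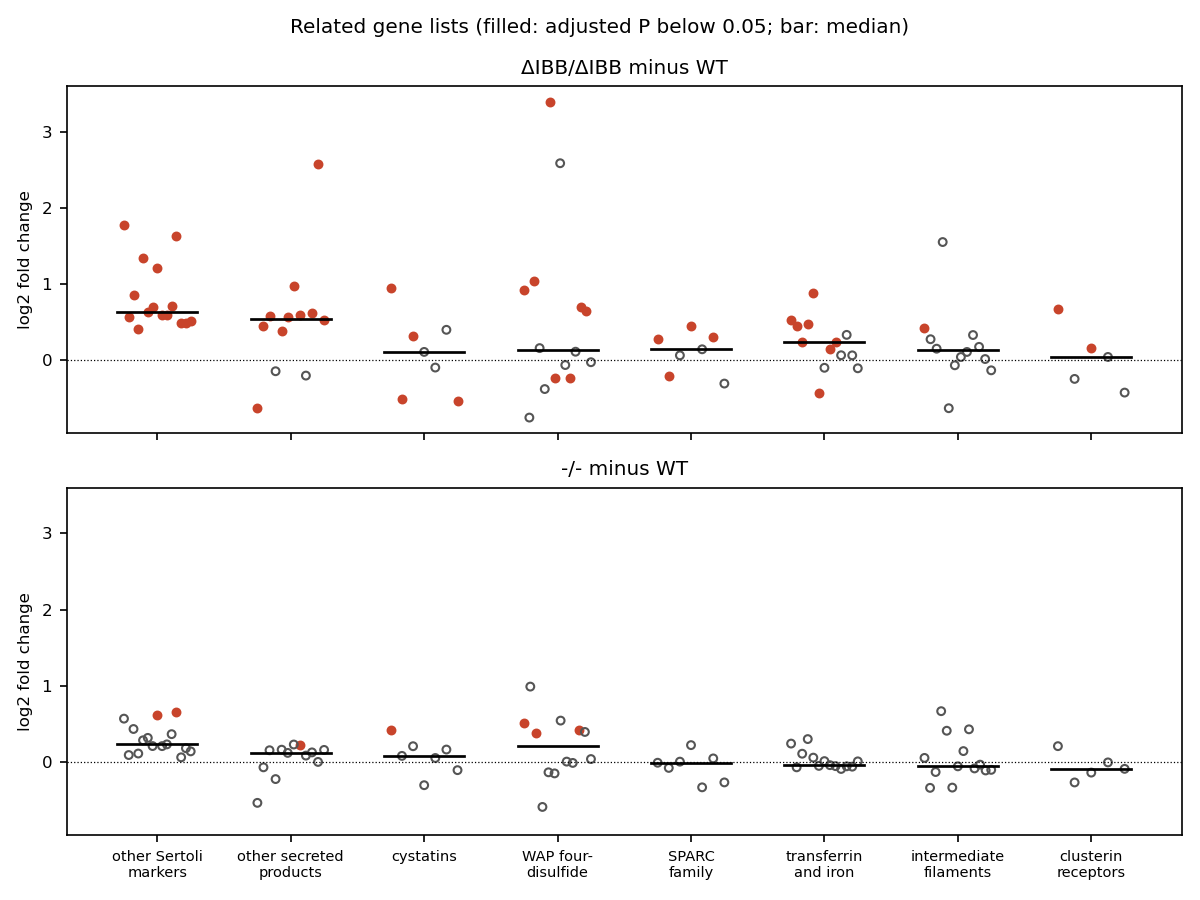
Log2 fold change (vertical axis) of the genes of 8 related lists in ΔIBB/ΔIBB minus WT (upper panel) and -/- minus WT (lower panel), with 1 point per gene, filled at an adjusted P-value below 0.05, and a bar for the median. The 15 other Sertoli markers are all filled in the upper panel with a median of 0.64 and 2 are filled in the lower panel, while the intermediate filament list holds 1 filled point in the upper panel.

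Of the 7 members, *Wfdc1*, *Aard* and *Cst9* each had 1 transcript in the files, and the other 4 had between 6 and 9. Clu-201 held 92.1 to 93.5% of the *Clu* TPM in every testis, and Sparc-201 held 60.5 to 66.4% of the *Sparc* TPM, the remainder being mostly the other coding transcript, Sparc-202. Vim-201 held 67.8 to 94.6% of the *Vim* TPM. Its share moved with a retained-intron transcript of 535 bases, Vim-203, which had between 0.126 TPM (*Kpna6*-/- replicate 1) and 9.15 TPM. Trf-201 held 33.6 to 51.6% of the *Trf* TPM, and a retained-intron transcript of 433 bases, Trf-209, held between 3.84 and 13.1 TPM on only 15.5 to 44.2 estimated counts. In 12 comparisons of these shares, the exact permutation test gave unadjusted P-values from 0.1, the smallest that 3 against 3 testes allow, to 0.9, and adjusted values from 0.6 to 0.9. The largest differences were 10.1 percentage points for Vim-201 (*Kpna6*-/- minus WT, adjusted P = 0.6) and 7.67 for Trf-201 (ΔIBB/ΔIBB minus WT, adjusted P = 0.6). The Vim-201 difference was 3.73 points by share of estimated counts, 5.94 without *Kpna6*-/- replicate 1 and 5.86 without WT replicate 3. Between ΔIBB/ΔIBB and WT, the share of Clu-201 differed by 0.425 percentage points, and by 0.141 (without ΔIBB/ΔIBB replicate 1) to 0.740 (without WT replicate 2) with 1 library left out. That of Sparc-201 differed by 0.223 points, and by -0.859 (without WT replicate 2) to 1.31 (without WT replicate 1).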

How the data were processed

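Poly(A) RNA of 9 whole testes was sequenced on an Illumina NovaSeq with an unstranded kit, 1 library per mouse. The authors quantified reads with kallisto (version 0.45 in their processing notes, mm10) and deposited estimated counts per transcript. The deposited TPM values per transcript came from the same run, and neither was normalized between samples. Both were summed per gene after 95301 of 96626 transcripts (98.6%) were assigned with GENCODE M21 (GRCm38). Counts were rounded, filtered (filterByExpr), scaled by TMM and tested with edgeR 4.0.16 in R 4.3.3 (quasi-likelihood, Benjamini-Hochberg over all genes, threshold 0.05), using the 6 samples of each comparison. The procedure was tested on simulated data. The members and lists were chosen with earlier results of these data known. Named are the members, *Kpna6*, up to 4 most abundant genes per list and list genes called with a 2-fold change. *Cst13*, *Wfdc6a*, *Tfrc*, *Smoc1*, *Des*, *A2m*, *Gm20425*, *Gfra1*, *Odf2*, *Tnp2* and a few markers were named after their values were seen. Alternatives used DESeq2 1.42.0 and limma 3.58.1, blastn 2.17.0+ sought shared sequence, and pandas 2.3.3, scipy 1.17.1 and matplotlib 3.10.9 served tables, permutation tests and plots. The P-values of the fits set each group difference against the spread between 3 mice per group, moderated over genes. Those of the permutation tests rank the difference among all regroupings of the testes.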

Additional observations from a re-analysis of the deposited data

How the results depend on the processing

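The count of members called higher between the mutant lines (7) was 6 or 7 under every alternative run, but it is not independent of the choice. In ΔIBB/ΔIBB, 7 of 7 members were separated from WT except with near-identical sequences summed (6). In *Kpna6*-/- compared with WT, 5 members were called, a count that is not independent of the choice either. The count was 3 with length-scaled TPM counts, 2 with limma on log2(TPM + 1), 1 with limma on log2(TPM + 0.1) and 3 to 7 with 1 library left out. With the replicate block the counts were 5 and 7. Same-numbered testes did not deviate together (correlations from -0.056 to 0.078), so the numbers do not pair the samples. Adding to *Trf* the 45 other genes that match it over at least 100 bases reversed its log2 fold change to -0.17 (ΔIBB/ΔIBB and WT), -0.0345 (*Kpna6*-/- and WT) and -0.14 (mutant lines), but *Trf* itself made up 2.56% of that sum. With the median of the Sertoli markers as reference, the ratios moved in ΔIBB/ΔIBB compared with WT to 0.0228 (*Clu*), 0.31 (*Sparc*), 0.83 (*Wfdc1*), 0.21 (*Aard*), 0.44 (*Vim*) and 0.24 (*Cst9*), and between the mutant lines to 0.037 (*Clu*), 0.13 (*Trf*), 0.40 (*Sparc*), 0.28 (*Wfdc1*), 0.15 (*Aard*), 0.35 (*Vim*) and -0.11 (*Cst9*). Calls higher and lower among all genes (3327 and 3547 in ΔIBB/ΔIBB compared with WT, 2523 and 3150 between the mutant lines, 166 and 133 in *Kpna6*-/- compared with WT) were 5416 and 2326, 4931 and 2016, and 168 and 107 with scaling by library size only. For *Kpna6*-/- they were 39 and 31 with length-scaled counts, 10 and 16 or 8 and 10 with limma and 349 and 275 without a filter. Of 320 counts of list genes under alternatives chosen after seeing the data, 41 moved by over 1.5 times. The macrophage genes higher in ΔIBB/ΔIBB were 8 with library size only and 2 without ΔIBB/ΔIBB replicate 3. The Leydig genes were 0 with DESeq2. The cause of these changes was not tested. With 3 mice per group, the spread between mice sets the precision of the values.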
